A study of Mus musculus with 6 samples.

Results

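Expression of 10 genes of hepatic glucose output, glycogen turnover and the insulin response was examined in liver RNA of 3 mice on CDAA feed and 3 mice on CSAA feed. The 10 genes are Pck1, Fbp1, Pcx, Slc37a4, Slc2a2, Gys2, Pygl, Ppargc1a, Irs2 and Igfbp1. They were taken by symbol from the 21899 genes in the files, each matched 1 row per library, and all 10 passed the filter on low counts that left 12845 genes for testing. The mice were C57BL/6, 6 weeks old at the start. Those on CDAA, in field usage a choline-deficient amino acid-defined feed, had 1 week to acclimatise, were moved to it through mixtures of both feeds in 1 week, and gave their livers at week 6 after that change. Those on CSAA, the choline-supplemented counterpart, were the controls. Their labels give 6 weeks on that feed, and 1 week to acclimatise and 1 week of change were recorded alike for both groups. The sources used here do not give the sex of the mice, the hour of sampling or whether food was withdrawn. Each library came from a separate mouse, so the tests below compare the feeds with mice as the replicates.

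As background, the liver releases glucose in 2 ways, by breaking down glycogen and by building new glucose from lactate, glycerol and amino acids. Pyruvate carboxylase (Pcx), phosphoenolpyruvate carboxykinase (Pck1) and fructose-1,6-bisphosphatase (Fbp1) carry the steps that bypass irreversible reactions of glycolysis. Both routes meet at glucose 6-phosphate, which Slc37a4 carries into the endoplasmic reticulum for hydrolysis, and Slc2a2 (GLUT2) passes glucose across the hepatocyte membrane. Gys2 is the liver glycogen synthase and Pygl the liver glycogen phosphorylase. Glucagon, acting through cyclic AMP, raises Pck1 and the coactivator Ppargc1a, and insulin represses Pck1, Irs2 and Igfbp1 through the FOXO transcription factors. These genes therefore serve in liver studies as readouts of the hormonal state, and several follow feeding and the time of day.

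The libraries held 14580676, 15291743 and 15053526 reads over genes in CDAA livers, against 17367173, 17080811 and 15459290 in CSAA livers. Levels below are CPM, the reads of a gene set to a common library total after scaling each library with edgeR's TMM factors, unless FPKM is named. Of all tested genes, 546 (4.25%) were called higher and 1355 (10.5%) lower in CDAA livers at an edgeR adjusted p under 0.05. Higher genes made up 28.7% of the calls. That share was 4.74% on unscaled library totals, 3.55% when libraries were scaled on 20 hepatocyte marker genes and 40.7% with DESeq2. Hepatocyte markers such as Alb took 12.8% to 14.2% of reads in CDAA livers and 12.3% to 13.8% in CSAA livers, and on the TMM scale their median log2 difference was 0.43. Of the 20, Cps1 was called higher and Hpx lower. Alb weighs most in their summed reads, with 70983 of 142212 CPM in CDAA replicate 1 and 49590 of 105144 CPM in CSAA replicate 1. Of 20 monocyte and macrophage markers, 16 were called lower, with a summed level of 575 to 756 CPM of the unscaled total in CDAA livers against 1817 to 2872 in CSAA livers. Of 10 stellate cell and myofibroblast markers, 7 were called lower, with sums of 369 to 634 CPM in CDAA livers against 1111 to 1683 CPM in CSAA livers. Within this set Acta2 and Des ran the other way, by 0.89 ± 0.58 and 0.39 ± 0.58 on the log2 scale. Neither was called (edgeR adjusted p = 0.343 and 0.695). The sums of both non-parenchymal sets were thus lower in every CDAA liver than in any CSAA liver. The same sums were 380 to 416 in CDAA livers against 585 to 635 CPM in CSAA livers for 8 sinusoidal endothelial genes, of which 3 were called lower. They were 6.86 to 10.6 CPM in CDAA livers against 32.4 to 44.3 CPM in CSAA livers for 10 lymphocyte genes, of which 6 were called lower. Of 6 cholangiocyte genes 4 were tested and 0 called, with sums of 8.50 to 9.67 CPM in CDAA livers against 10.7 to 32.8 CPM in CSAA livers. CDAA replicate 1 stood apart with 2156 CPM of 17 pancreatic acinar genes and 298 CPM of 12 striated muscle genes, where the other 5 libraries had at most 15.4 and 1.90 CPM. Mitochondrial transcripts took 6.24%, 6.31% and 5.49% of reads in CDAA livers, against 4.12%, 4.66% and 5.25% in CSAA livers, without overlap, and the part of this difference in the results below was not tested. Of 8 pancreatic islet genes, 6, among them Ins1, Ins2 and Gcg, had no read in any library. In bulk tissue, fewer cells of a type and less RNA per cell cannot be told apart. Feed was taken from the library labels. Every direction given here rests on them, the lower macrophage and stellate cell sums in CDAA livers among them. Whether the labels match the feed given was not tested.

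The promoters of 9 of the 10 genes were found in a RefSeq table on GRCm38.p6 (12 windows, each from 250 bases before to 50 bases after a start site). Gys2 has no entry. They were searched on both strands for the letters ACGTCA, the core of the cyclic AMP response element, and for GTAAACA and CAAAACA, cores bound by forkhead factors. The 3 windows below are shown because they belong to the most abundant gene called, the gene with the largest difference called, and the textbook insulin-repressed gene. Capitals mark the match.
Pck1, chr2:173152823-173153122, plus strand: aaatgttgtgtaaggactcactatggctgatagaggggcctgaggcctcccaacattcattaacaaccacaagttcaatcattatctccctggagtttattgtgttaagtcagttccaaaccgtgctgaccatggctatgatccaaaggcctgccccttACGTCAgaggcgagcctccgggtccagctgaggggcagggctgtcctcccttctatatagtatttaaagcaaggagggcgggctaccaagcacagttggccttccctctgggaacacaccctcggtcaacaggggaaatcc
Slc37a4, chr9:44396696-44396995, plus strand: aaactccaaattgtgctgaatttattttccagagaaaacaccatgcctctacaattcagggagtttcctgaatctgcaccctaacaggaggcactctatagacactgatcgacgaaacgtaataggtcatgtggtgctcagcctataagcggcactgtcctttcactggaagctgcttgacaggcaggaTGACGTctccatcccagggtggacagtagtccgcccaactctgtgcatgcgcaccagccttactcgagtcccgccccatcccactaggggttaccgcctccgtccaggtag
Igfbp1, chr11:7197537-7197836, plus strand: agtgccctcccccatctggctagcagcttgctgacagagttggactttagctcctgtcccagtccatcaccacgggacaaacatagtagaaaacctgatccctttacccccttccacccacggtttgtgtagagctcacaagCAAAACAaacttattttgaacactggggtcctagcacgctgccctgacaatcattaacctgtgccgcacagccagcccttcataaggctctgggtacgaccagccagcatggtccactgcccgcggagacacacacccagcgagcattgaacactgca
ACGTCA occurred in 4 windows of 3 genes, against 7.51% of all 32851 promoters in the table. In Pck1 it lay 91 to 86 bases before the start site. In Slc37a4 it lay on the opposite strand, 61 to 56 bases before the start site, where it reads TGACGT. An overlapping window of the same gene held this same site, which is thus counted in both windows. Another Slc37a4 window, from 44398104 to 44398403, held no match. Ppargc1a held it 50 to 45 bases before its start site. CAAAACA occurred in 2 windows, against 6.28% of all promoters. It lay 108 to 102 bases before the Igfbp1 start site, and 37 to 31 bases before that of Irs2 on the opposite strand. GTAAACA was found in 0 of the 12 windows, against 3.65% of all promoters. Of the 3 genes with ACGTCA, Pck1 and Slc37a4 were called higher in CDAA livers and Ppargc1a was not called, and neither gene with CAAAACA was called. A match of letters does not show that a factor binds there.

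On the TMM scale all 10 genes had a positive log2 difference, with Gys2 and Irs2 negative on the other scalings given below, and the differences were 0.15 to 0.73 with a median of 0.46, where 6424 of the 12845 tested genes had a positive difference. Of the 10, 2 were called higher, Pck1 and Slc37a4, and 0 lower; 4.25% of all tested genes were called higher. In 6 of them the 2 groups did not overlap, all higher in CDAA livers, which held for 15.6% of all tested genes. The 10 genes lie on 10 different chromosomes.

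**Figure D1:**
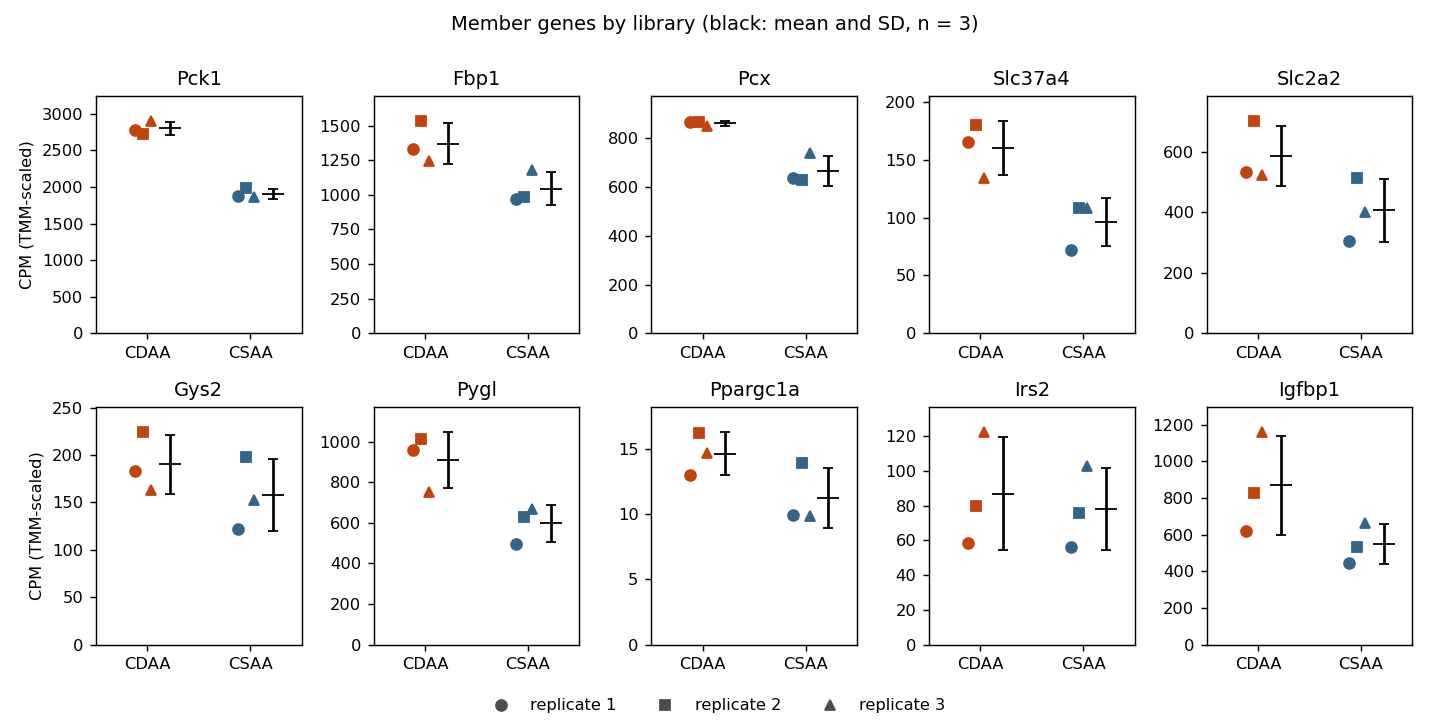
Levels of the 10 genes in CPM on TMM-scaled library sizes, 1 point per library with the replicate number as its shape, CDAA left of CSAA, and the mean with SD (n = 3) in black. Pck1 has the tightest groups relative to its difference, and the points of Irs2 span nearly the same range on both feeds.

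Among the enzymes of glucose synthesis, Pck1, which turns oxaloacetate into phosphoenolpyruvate, was the most abundant by CPM (ENSMUSG00000027513, chromosome 2 from 172994841 to 173001066, plus strand; the build of these coordinates is not named in the files). It stood at 2779.8, 2725.8 and 2901.7 CPM in CDAA livers and at 1877.7, 1982.6 and 1862.7 CPM in CSAA livers. The lowest CDAA liver lay well above the highest CSAA liver, and the replicates of each group lay close together. Its mean was 2802 ± 90.1 CPM in CDAA livers and 1908 ± 65.4 CPM in CSAA livers (SD, n = 3 each), and the log2 difference was 0.55 ± 0.13 (SE; 1.47-fold; edgeR adjusted p = 0.0293). The call was lost in 5 of the 6 fits that left out 1 library, with an edgeR adjusted p of 0.0416 to 0.0961 over the 6, and held only without CDAA replicate 3. The log2 difference ran from 0.53 to 0.59 in those fits.

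Pcx, which makes oxaloacetate from pyruvate in mitochondria (ENSMUSG00000024892, chromosome 19 from 4560500 to 4671780, plus strand), had 867.3, 865.5 and 849.8 CPM in CDAA livers and 635.9, 627.6 and 738.6 CPM in CSAA livers. The groups did not overlap, and the 3 CDAA livers lay within a narrow band. The log2 difference of 0.37 ± 0.12 did not pass (edgeR adjusted p = 0.0806; 95% interval 0.09 to 0.65). The gene overlaps Lrfn4 on the other strand, and the sources used here do not give the strand setting of the counting. Lrfn4 held 8.72 ± 1.59 CPM in CDAA livers and 7.14 ± 0.915 CPM in CSAA livers, a small fraction of the Pcx level.

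Fbp1, the bisphosphatase that opposes phosphofructokinase (ENSMUSG00000069805, chromosome 13 from 63012567 to 63036096, minus strand), had 1332.8, 1532.2 and 1240.3 CPM in CDAA livers and 969.9, 980.7 and 1181.1 CPM in CSAA livers. The lowest CDAA liver was just above the highest CSAA liver. The log2 difference was 0.39 ± 0.15 and did not pass (edgeR adjusted p = 0.117; 95% interval 0.05 to 0.73).

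Of the transporters, Slc37a4, the glucose 6-phosphate carrier of the endoplasmic reticulum, showed the largest log2 difference of the 10 genes (ENSMUSG00000032114, chromosome 9 from 44308149 to 44314265, plus strand). It had 165.7, 180.2 and 134.4 CPM in CDAA livers, against 72.1, 108.6 and 107.9 CPM in CSAA livers. The groups did not overlap, and CSAA replicate 1 was low. Its mean was 160.1 ± 23.4 CPM in CDAA livers and 96.2 ± 20.9 CPM in CSAA livers (SD, n = 3 each), with a log2 difference of 0.73 ± 0.18 (1.66-fold; edgeR adjusted p = 0.0341, called higher). This call too held only without CDAA replicate 3 among the 6 fits that left out 1 library, with edgeR adjusted p of 0.0220 to 0.106 and log2 differences of 0.59 to 0.85. Slc2a2, the low-affinity glucose transporter of the hepatocyte membrane (ENSMUSG00000027690, chromosome 3 from 28752052 to 28785508, plus strand), had 534.7, 702.4 and 523.1 CPM in CDAA livers and 306.7, 513.0 and 401.0 CPM in CSAA livers. The groups met almost end to end, with the highest CSAA liver just under the lowest CDAA liver. The log2 difference of 0.53 ± 0.21 did not pass (edgeR adjusted p = 0.129; 95% interval 0.05 to 1.01).

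Neither glycogen enzyme passed. Pygl, which releases glucose 1-phosphate from glycogen (ENSMUSG00000021069, chromosome 12 from 70237585 to 70278262, minus strand), had 958.4, 1015.3 and 754.3 CPM in CDAA livers and 493.4, 629.0 and 670.7 CPM in CSAA livers. The groups did not overlap. The log2 difference was 0.61 ± 0.17 (1.52-fold) and lay just outside the threshold (edgeR adjusted p = 0.0503), with a 95% interval of 0.21 to 1.00. Gys2, which adds glucose to the chains (ENSMUSG00000030244, chromosome 6 from 142368339 to 142418835, minus strand), had 183.5, 223.9 and 163.0 CPM in CDAA livers and 122.2, 197.8 and 152.0 CPM in CSAA livers. The groups overlapped. Its log2 difference of 0.27 ± 0.19 did not pass (edgeR adjusted p = 0.382; 95% interval -0.17 to 0.72). It turned negative on other scalings, at -0.0085 on unscaled totals and -0.0814 on the hepatocyte markers.

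The coactivator Ppargc1a and the insulin-responsive genes Igfbp1 and Irs2 did not pass. Ppargc1a, a coactivator of gluconeogenic and mitochondrial genes (ENSMUSG00000029167, chromosome 5 from 51611592 to 51725068, minus strand), had 13.0, 16.3 and 14.7 CPM in CDAA livers and 9.93, 13.9 and 9.87 CPM in CSAA livers. Its log2 difference was 0.38 ± 0.18 (edgeR adjusted p = 0.200; 95% interval -0.04 to 0.80), and CSAA replicate 2 lay within the CDAA range. Igfbp1, a secreted binding protein of insulin-like growth factors (ENSMUSG00000020429, chromosome 11 from 7147782 to 7152546, plus strand), had 621.7, 824.8 and 1159.1 CPM in CDAA livers and 446.2, 534.3 and 662.5 CPM in CSAA livers. The groups overlapped, since CSAA replicate 3 exceeded CDAA replicate 1. The log2 difference was 0.67 ± 0.24 (1.59-fold; edgeR adjusted p = 0.107; 95% interval 0.10 to 1.23). Irs2, an adaptor of the insulin receptor (ENSMUSG00000038894, chromosome 8 from 11034681 to 11058458, minus strand), had 58.6, 79.7 and 122.2 CPM in CDAA livers and 55.9, 75.6 and 103.0 CPM in CSAA livers. The ranges largely coincided, and the log2 difference of 0.15 ± 0.29 (edgeR adjusted p = 0.765; 95% interval -0.52 to 0.83) was smaller than its error. The sign was negative on both other scalings, at -0.11 on unscaled totals and -0.18 on the hepatocyte markers.

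The genes differed in how much the mice of 1 group varied. The SD of log2 CPM for Pck1 was 0.0461 in CDAA livers and 0.0490 in CSAA livers, against medians over all tested genes of 0.201 in CDAA livers and 0.166 in CSAA livers. For Irs2 it was 0.529 in CDAA livers and 0.438 in CSAA livers, and for Igfbp1 0.450 in CDAA livers and 0.285 in CSAA livers. Both of these insulin-responsive genes were lowest in replicate 1 and highest in replicate 3 of each group. CSAA replicate 1 was the lowest CSAA liver for Slc37a4, Slc2a2, Gys2 and Pygl.

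The size of the feed difference depended on the scaling. On unscaled library totals, where the median of all tested genes moved by -0.28 on the log2 scale, 0 of the 10 genes were called, against 1.07% of all tested genes called higher. Their median log2 difference was then 0.18, and 8 of 10 were positive. With libraries scaled on the hepatocyte markers the median of all genes moved by -0.36, again 0 of 10 were called (0.864% of all tested genes called higher) and the median of the 10 was 0.11 with 8 positive. Under that scaling Pck1 differed by 0.19 (edgeR adjusted p = 0.327) and Slc37a4 by 0.39 (edgeR adjusted p = 0.110). Reads were also set against those of the hepatocyte markers, in reads per 1000 marker reads. Pck1 had 19.6, 17.6 and 19.1 reads in CDAA livers and 17.9, 17.2 and 14.1 in CSAA livers. Slc37a4 had 1.17, 1.16 and 0.886 in CDAA livers and 0.686, 0.943 and 0.816 in CSAA livers. On this measure the groups overlapped for all 10 genes, while 1.84% of all tested genes were higher in CDAA livers without overlap. On unscaled totals Pck1, Slc37a4 and Pygl stayed apart, as did 3.18% of all tested genes. On the TMM scale itself, 5 of the 10 genes lay above the hepatocyte marker median of 0.43 and 5 below it. A median splits the 20 markers evenly by construction, so this is no excess over the markers. The median of the 10 was 0.46 on that scale, and 10.7% of all tested genes lay above 0.43. DESeq2 called 7 of the 10 higher, adding Fbp1, Pcx, Slc2a2, Pygl and Igfbp1, where it called 8.7% of all tested genes higher. Leaving out CDAA replicate 3 gave 3 called genes (Pck1, Pygl and Slc37a4), and leaving out any other library gave 0. The share of all tested genes called higher was 1.71% without CDAA replicate 1, 1.2% without CDAA replicate 2 and 5.25% without CDAA replicate 3, and 0.588%, 1.25% and 3.04% without CSAA replicates 1, 2 and 3.

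**Figure D2:**
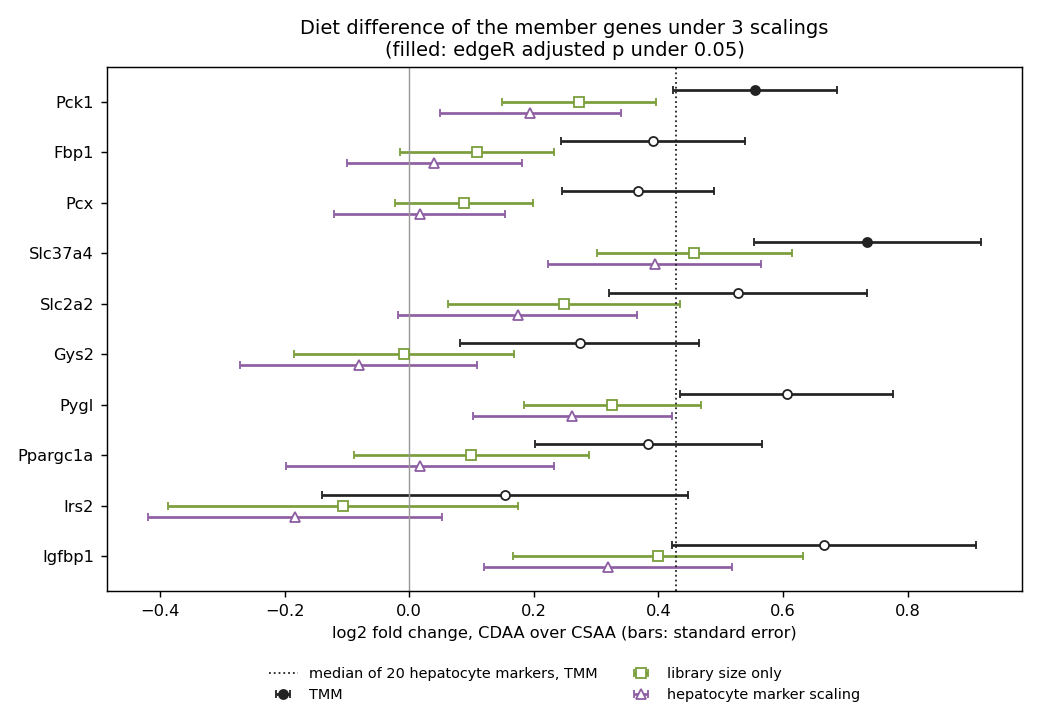
Log2 difference of CDAA over CSAA livers for each gene under TMM scaling, unscaled library totals and hepatocyte marker scaling, with bars for the standard error and filled points for edgeR adjusted p under 0.05. Pck1 and Slc37a4 are filled on the TMM scale, and the points of Gys2 and Irs2 lie below 0 on the other scalings.

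Per length, the genes spanned more than 2 orders of magnitude in FPKM, the authors' value scaled for gene length and library total. In CDAA livers the order was Pck1 at 741.7 ± 45.5, Fbp1 at 727.8 ± 59.8, Igfbp1 at 518.8 ± 175.2 and Pcx at 164.2 ± 3.19 FPKM (SD, n = 3). Pygl at 119.3 ± 14.9, Slc2a2 at 92.2 ± 13.5, Gys2 at 64.7 ± 8.79 and Slc37a4 at 50.7 ± 6.02 FPKM came next, and Irs2 at 12.5 ± 5.0 and Ppargc1a at 2.02 ± 0.211 FPKM were lowest. In CSAA livers Fbp1 led at 674.6 ± 45.5 and Pck1 followed at 614.3 ± 41.9 FPKM, with the remaining 8 genes in the same order. The ranges of Pck1 and Fbp1 overlapped on both feeds, so their order is not resolved in either group. Those of Pygl and Slc2a2 overlapped on both feeds too, as did Fbp1 and Igfbp1 in CDAA livers and Slc2a2 and Gys2 in CSAA livers. The first and last gene differed 368-fold in CDAA livers and 359-fold in CSAA livers.

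**Figure D3:**
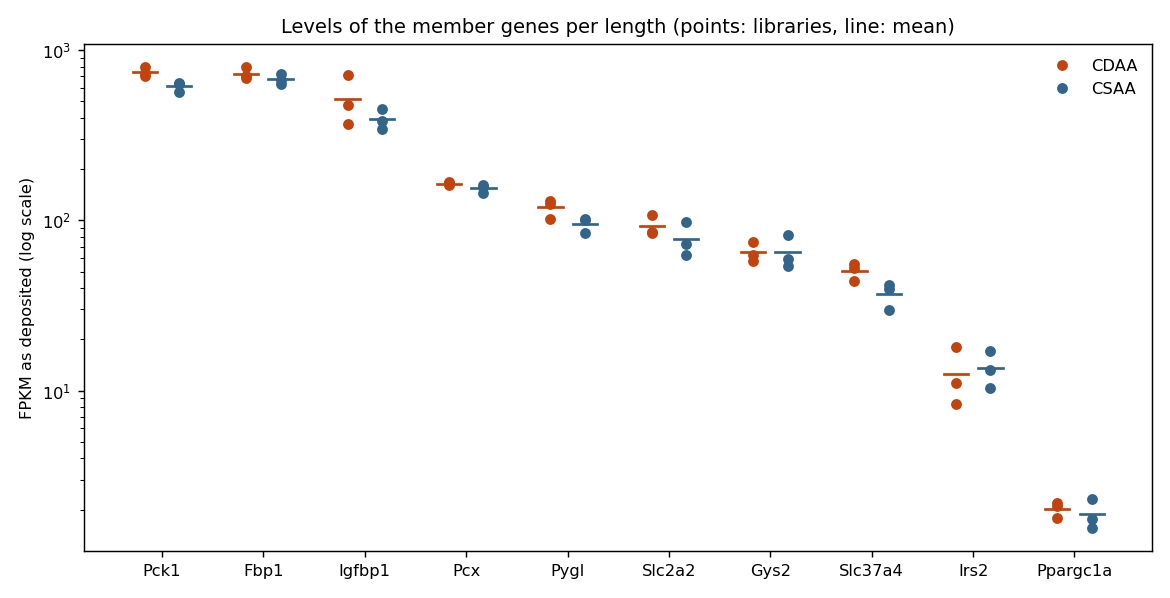
FPKM of the 10 genes on a log axis, per library with group means, CDAA beside CSAA. The genes run down from Pck1 and Fbp1 to Irs2 and Ppargc1a.

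Ratios of 2 genes within a library do not depend on the scaling, and 3 are given on read counts, with p-values adjusted over the 5 computed. With 3 livers against 3, the smallest two-sided p of the exact permutation test is 0.1. Gys2 over Pygl, the synthase relative to the phosphorylase, had log2 ratios of -2.38, -2.18 and -2.21 in CDAA livers and -2.01, -1.67 and -2.14 in CSAA livers. It was lower in CDAA livers without overlap (difference -0.32; exact permutation p = 0.1, adjusted over the 5 ratios 0.25). Igfbp1 over Igfbp2, another binding protein, had log2 ratios of 1.28, 1.16 and 0.68 in CDAA livers and -0.35, 0.49 and 0.22 in CSAA livers. It was higher in CDAA livers without overlap (difference 0.92; exact permutation p = 0.1, adjusted 0.25). Irs2 over Irs1, the adaptors of the insulin receptor, was 1.17 ± 0.74 in CDAA livers and 1.29 ± 0.70 in CSAA livers, and the groups overlapped (difference -0.11; exact permutation p = 0.7, adjusted 0.7).

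**Figure D4:**
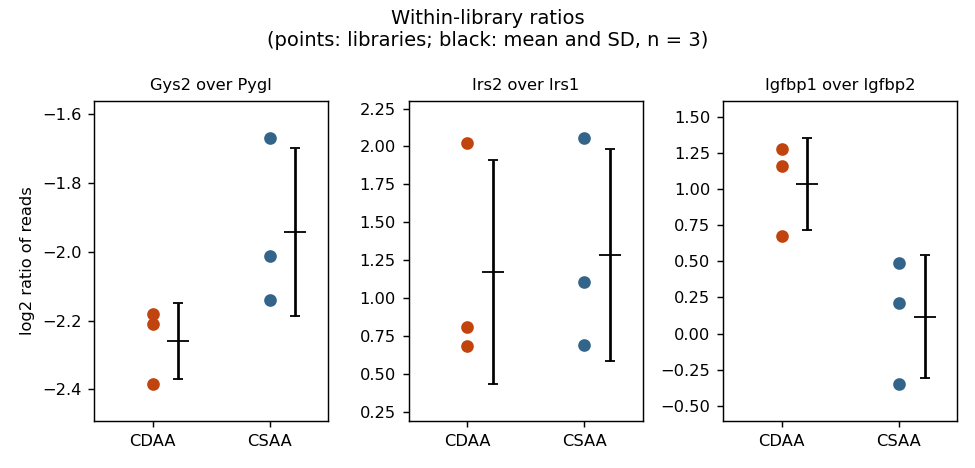
Log2 read-count ratios of 3 gene pairs, 1 point per library, CDAA left of CSAA, with mean and SD (n = 3). Gys2 over Pygl and Igfbp1 over Igfbp2 are the pairs whose groups do not overlap.

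In the surrounding pathways, 134 of 137 listed genes were tested, of which 10 were called higher, 6 lower and 88 (65.7%) had a positive log2 difference, with a median of 0.13. Of all tested genes 4.25% were called higher and 10.5% lower, and 6424 of 12845 were positive. The balance of calls turned with the scaling: on unscaled totals 1 pathway gene was called higher and 22 lower (1.07% and 21.5% of all tested genes), and under hepatocyte marker scaling 1 higher and 25 lower (0.864% and 23.5%). DESeq2 called 27 higher and 9 lower, and leaving out 1 library gave 0 to 12 higher, the lowest without CSAA replicate 1, and 3 to 8 lower. Of 16 tested genes of glucose output and substrate entry, 2 were called higher, Mpc2 of the mitochondrial pyruvate carrier and cytosolic malate dehydrogenase Mdh1, and 0 lower (median 0.23). Mpc2 averaged 148.7 ± 26.8 CPM in CDAA livers and 94.1 ± 7.65 CPM in CSAA livers (log2 difference 0.66 ± 0.15; edgeR adjusted p = 0.0231). Mpc1, the other subunit of that carrier and named after its values were seen, averaged 4.35 ± 1.3 CPM in CDAA livers and 6.62 ± 0.619 CPM in CSAA livers, lower without overlap, and did not pass (-0.61 ± 0.25; edgeR adjusted p = 0.150). Mdh1 averaged 422.9 ± 44.8 CPM in CDAA livers and 283.9 ± 44.2 CPM in CSAA livers (0.58 ± 0.15; edgeR adjusted p = 0.0381). G6pc, the catalytic subunit of glucose 6-phosphatase that acts behind Slc37a4, had 1716.9, 1500.7 and 1270.7 CPM in CDAA livers, against 558.8, 629.3 and 1143.5 CPM in CSAA livers. Its groups did not overlap, but CSAA replicate 3 was near the CDAA livers, and the log2 difference of 0.94 ± 0.28 was outside the threshold (edgeR adjusted p = 0.0554). Pck2, the mitochondrial form of the carboxykinase, ran the other way at 9.39 ± 3.61 CPM in CDAA livers and 18.4 ± 7.73 CPM in CSAA livers, and did not pass (edgeR adjusted p = 0.117), although it was called lower on unscaled totals (-1.28; edgeR adjusted p = 0.0477) and under hepatocyte marker scaling (-1.39; edgeR adjusted p = 0.0207). The 7 genes of the reversible steps had 0 calls (median 0.09).

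In the glycogen list, 2 of 20 genes were called lower and 0 higher (median 0.09). Pygb, the brain form of the phosphorylase, averaged 10.1 ± 2.01 CPM in CDAA livers and 23.1 ± 2.27 CPM in CSAA livers (log2 difference -1.19 ± 0.17; edgeR adjusted p = 0.00441). Pgm2 differed by -0.79 ± 0.16 (edgeR adjusted p = 0.0179). Of 5 tested subunits that direct protein phosphatase 1 to glycogen, Ppp1r3b, the main liver form, was called higher at 413.0, 353.5 and 179.0 CPM in CDAA livers, against 109.2, 152.3 and 157.7 CPM in CSAA livers (log2 difference 1.17 ± 0.29; edgeR adjusted p = 0.0353). CDAA replicate 3 was close to the CSAA livers, and Ppp1r3c did not pass (edgeR adjusted p = 0.893). Gbe1, the branching enzyme, did not pass either (edgeR adjusted p = 0.891).

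In glucose uptake, phosphorylation and sensing, 2 of 13 genes were called higher and 3 lower (median 0.22). The transcription factor Mlxipl (ChREBP) and its target liver pyruvate kinase Pklr were higher, by 0.59 ± 0.16 (edgeR adjusted p = 0.0430) and 0.87 ± 0.23 (edgeR adjusted p = 0.0449). Hexokinases Hk1, Hk2 and Hk3, which phosphorylate glucose in many tissues, were lower, Hk3 at 8.41 ± 1.83 CPM in CDAA livers against 29.3 ± 8.48 CPM in CSAA livers (-1.80 ± 0.24; edgeR adjusted p = 0.00371). Their values moved beside the lower sums of macrophage and stromal markers given above. The part of those cells in the Hk1, Hk2, Hk3 and Pygb results was not tested.

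Of 28 insulin signalling genes, 3 were called higher and 0 lower (median 0.13). Foxo1, the FOXO factor that insulin excludes from the nucleus, averaged 43.1 ± 2.38 CPM in CDAA livers and 30.2 ± 0.181 CPM in CSAA livers (0.51 ± 0.09; edgeR adjusted p = 0.0110). The receptor tyrosine phosphatase Ptprf was also called (0.41 ± 0.11; edgeR adjusted p = 0.0425). The insulin receptor Insr lay outside the threshold (0.39 ± 0.11; edgeR adjusted p = 0.0525), and Irs1 (edgeR adjusted p = 0.419) and Srebf1 (edgeR adjusted p = 0.527) did not pass. Of 26 glucagon, cyclic AMP and transcription factor genes, only Klf15, which promotes amino acid use for gluconeogenesis, was called, at 168.7 ± 19.7 CPM in CDAA livers and 103.5 ± 16.4 CPM in CSAA livers (0.70 ± 0.14; edgeR adjusted p = 0.0170). The glucagon receptor Gcgr did not pass (edgeR adjusted p = 0.140). Of 12 fasting-induced genes, Angptl4 was the 1 called (0.80 ± 0.22; edgeR adjusted p = 0.0483). That list was evenly split, with 6 positive and 6 negative log2 differences (median 0.16). Of 7 IGF binding protein genes, Igfbp7 was called lower (-0.92 ± 0.14; edgeR adjusted p = 0.00619), and Igfbp2 did not pass (edgeR adjusted p = 0.785). The Igfbp7 value moved beside the lower sum of stellate cell and myofibroblast markers, whose part was not tested.

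These pathway calls differed in how far they rested on 1 library or on the scaling. In the 6 fits that left out 1 library, Pygb, Hk3 and Igfbp7 were called in all 6, Foxo1 in all but the one without CSAA replicate 1, and Angptl4 in 0. Ppp1r3b, Pklr and Ptprf were called only without CDAA replicate 3, and Mlxipl only without CSAA replicate 3. Klf15, Hk1 and Hk2 lost the call without CDAA replicate 2, CSAA replicate 1 or CSAA replicate 3, and Pgm2 without CDAA replicate 2, CSAA replicate 1 or CSAA replicate 2. Mpc2 lost it without CDAA replicate 2 or any CSAA liver, and Mdh1 without CDAA replicate 1, CDAA replicate 2, CSAA replicate 1 or CSAA replicate 2. The highest edgeR adjusted p over these fits was 0.0509 for Foxo1, 0.0660 for Klf15, 0.0842 for Mpc2, 0.130 for Mdh1, 0.128 for Ppp1r3b, 0.148 for Pklr, 0.143 for Mlxipl, 0.142 for Ptprf and 0.115 for Angptl4. On unscaled totals the lower calls of Pygb, Pgm2, Hk1, Hk2, Hk3 and Igfbp7 were among the 22 made, and Ppp1r3b was the 1 higher call. The median was then negative in 7 of the 9 lists, at -0.06 for glucose output, -0.20 for the reversible steps, -0.19 for glycogen, -0.06 for glucose uptake, -0.16 for insulin signalling, -0.15 for the glucagon list and -0.12 for the fasting-induced genes.

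**Figure D5:**
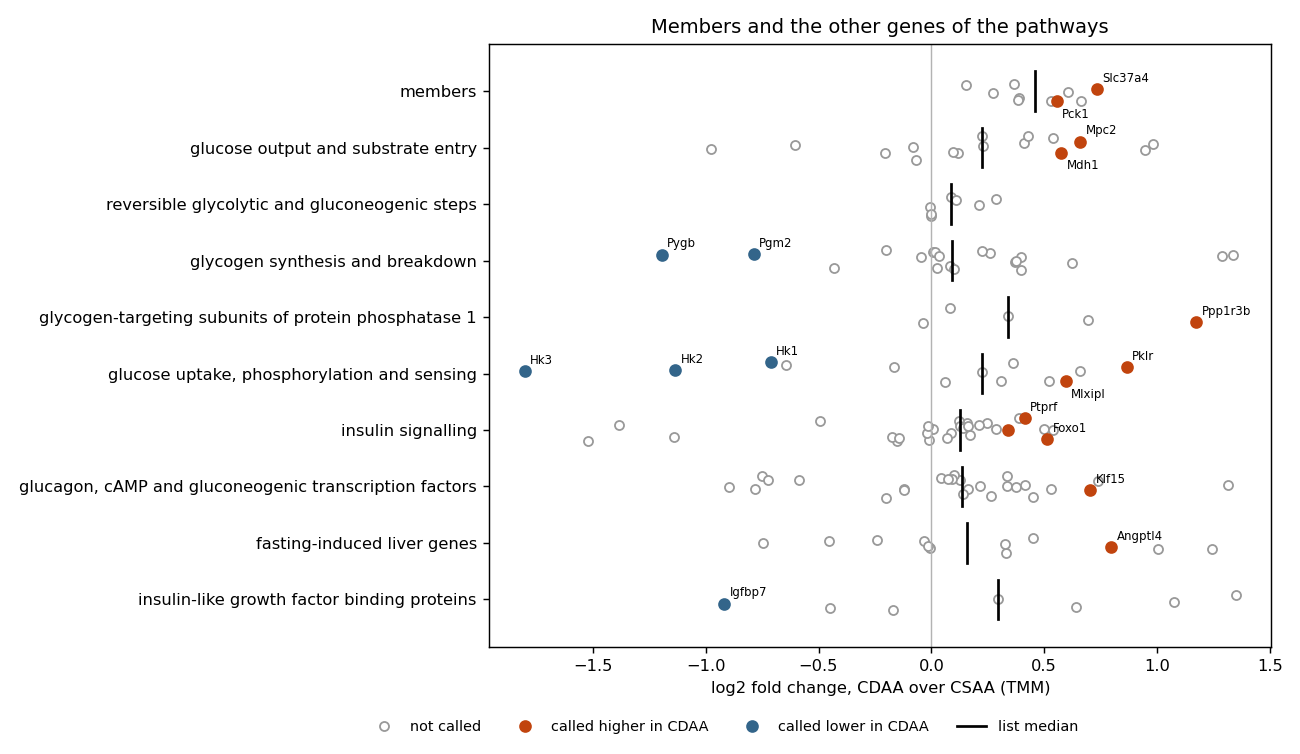
Log2 difference of CDAA over CSAA livers for the 10 genes and each pathway list, 1 point per gene, filled where the edgeR adjusted p is under 0.05, with the list median as a bar. The 10 genes all lie right of 0, and the called genes on the left are Hk1, Hk2, Hk3, Pygb, Pgm2 and Igfbp7.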

How the data were processed

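RNA of 6 livers was sequenced, and 1 file per library was used. Per the file headers, the files give for every gene a read count, deposited as whole numbers without normalisation, and an FPKM value made by the authors. The deposited FPKM equalled the count divided by gene length and library total for 100% of values, within a relative tolerance of 0.001. Builds mm10 and mm9 stand in the submitters' processing notes without a role, as do HTSeq 0.9.1, HISAT2 2.0.5, DESeq 1.30.0 and cutadapt 1.15. The file headers name no build, and the start and end of all 10 genes differ from GENCODE M21 on GRCm38, so gene coordinates are printed as deposited.

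Groups and replicate numbers came from the labels. Counts were tested in edgeR 4.0.16 (R 4.3.3; filterByExpr by group, TMM, glmQLFit, glmQLFTest), for CDAA against CSAA with no covariate. Benjamini-Hochberg adjustment ran over 12845 genes, with a threshold of 0.05 on the adjusted p. The standard error is the log2 difference over the square root of F. The functions were tested on simulated data. A count of 3 reads corresponds to 0.173 CPM at the highest library total and 0.206 CPM at the lowest, for counting error only.

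The 10 genes, the pathway and marker lists, the motifs and the 5 ratios were chosen with earlier results of these data known. Named genes are the 10, up to 3 called genes with the smallest adjusted p per list and direction, and 13 genes whatever their result, among them G6pc, Pck2, Insr, Irs1, Foxo1, Srebf1, Gcgr, Ppp1r3b, Ppp1r3c, Gbe1, Klf15 and Igfbp2. Results of some of these genes, and the ratios that use them, are not reported here. Lrfn4 was named because it overlaps Pcx. Alternatives were RLE factors, unscaled totals, upper-quartile factors, hepatocyte marker scaling, no filter, DESeq2 1.42.0, limma-voom (limma 3.58.1), a replicate block, leaving out each library and, for the ratios, FPKM in place of counts.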

Additional observations from a re-analysis of the deposited data

How the results depend on the processing

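Under 14 alternative fits no member was called lower. The count of members called higher, 2 in the fit reported, was 0 on unscaled totals and under hepatocyte marker scaling, 7 with DESeq2, 3 with RLE factors and limma-voom, and 0 to 3 when 1 library was left out. Over all genes, 546 were called higher in the fit reported, against 137 on unscaled totals, 111 under hepatocyte scaling, 1117 with DESeq2 and 76 to 688 with 1 library left out. The 1355 called lower became 2756 on unscaled totals, 3017 under hepatocyte scaling and 568 to 1456 with 1 library left out. With the replicate number as a block, 293 genes were called higher and 1 member, Igfbp1 (log2 difference 0.64 ± 0.15; edgeR adjusted p = 0.0447), while Pck1 (edgeR adjusted p = 0.0839) and Slc37a4 (edgeR adjusted p = 0.0504) were not. Deviations of same-numbered livers correlated at 0.05, 0.14 and -0.09 across genes, and the best match of CDAA replicate 3 was CSAA replicate 1. The numbers were therefore not taken as a pairing. A correlation over all genes cannot decide whether a few genes follow the numbers. Igfbp1 deviated by -0.44, -0.03 and 0.46 in CDAA replicates 1 to 3 and by -0.28, -0.02 and 0.29 in CSAA replicates 1 to 3. Irs2 rose in the same order on both feeds, and the other members did not. A pairing was not tested further. Signs reversed on unscaled totals and under hepatocyte scaling for Gys2 (-0.0085 and -0.0814), Irs2 (-0.11 and -0.18), Irs1 (-0.0507 and -0.13), Gcgr (-0.0155 and -0.0897) and Ppp1r3c (-0.23 and -0.31). With 1 library left out, log2 differences ran across 0 for Irs2 (-0.17 to 0.42, negative without CDAA replicate 3 and, at -0.02, without CSAA replicate 1), Ppp1r3c (-0.19 to 0.49, negative without CDAA replicate 2 and CSAA replicates 2 and 3), Srebf1 (-0.14 to 0.98, negative without CDAA replicate 2), Gbe1 (-0.14 to 0.21, positive without CSAA replicate 2) and Igfbp2 (-0.69 to 0.11, positive without CDAA replicate 1). The cause was not tested. Using FPKM cannot change the group difference of a ratio, since it shifts every library alike. With 1 library left out, the difference ran from -0.42 to -0.18 for Gys2 over Pygl, from 0.69 to 1.11 for Igfbp1 over Igfbp2 and from -0.54 to 0.27 for Irs2 over Irs1, which was positive without CDAA replicate 1, CDAA replicate 2 or CSAA replicate 3. With 3 mice a group, changes under the intervals given could not be resolved.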
